A study of Mus musculus with 2 samples.

Results

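The clustered histone genes were taken as all genes whose symbol begins with Hist1h, Hist2h, Hist3h or Hist4h and that had at least 10 unique molecular identifiers (UMIs, 1 per captured RNA molecule) over both libraries. Of 27998 genes in the matrices, 69 matched the symbol rule and 58 reached the minimum. The members just inside it were Hist1h4k and Hist1h4m with 15 UMIs each and Hist1h4f with 10. Just outside were Hist1h3h and Hist1h2ad with 8 UMIs each, Hist1h2al with 6, and Hist1h2ao and Hist1h1t with 5 each, and 2 of the 11 genes left out had 0 UMIs. The data were 10x Genomics single-cell RNA sequencing of dissociated whole lung from C57BL/6 mouse pups aged 2 weeks. One group breathed room air (21% O2) and the other was exposed to 80% O2 (hyperoxia) between P0 and P14, a neonatal lung injury model. Each group was 1 library from 8 pooled mice, so no difference between the groups had a replicate check and no test was run. Every interval below is an exact 95% interval for counting error alone and does not cover variation between pups, litters or cell preparations.

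The linker histone H1 and the core histones H2A, H2B, H3 and H4 package DNA into chromatin, and most of their genes lie in clusters. The replication-dependent members are transcribed mainly during S phase, and their mRNA normally ends in a conserved stem-loop that is bound by SLBP instead of in a poly(A) tail. Some members can also be read through the stem-loop to a downstream poly(A) signal, and such polyadenylated transcripts are known from cells that no longer divide. The library chemistry used here primes on poly(A), so a level below is the level of captured RNA and need not follow the total histone mRNA of a cell.

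In GENCODE M21 (GRCm38), 56 of the 58 gene identifiers were annotated. The Hist1 locus held 43 of these members between chr13:21715763-23764406, with 22 on the plus strand and 21 on the minus strand. Hist2 held 10 members at chr3:96219865-96279001, Hist3 held 2 at chr11:58948920-58956830, and Hist4 held Hist4h4 alone at chr6:136801553-136804415. A 16-base stem-loop was found in the annotated transcript of 40 members, and 8 spellings of it occurred. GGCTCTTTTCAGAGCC was the most frequent, in 21 members of the H1, H2A, H2B and H3 families. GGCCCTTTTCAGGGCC was found in 7 members, all of them H4 genes, and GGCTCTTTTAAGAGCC in 5 members of the H2B and H3 families.

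The stem-loops of 10 members that carry the comparisons below are shown with the bases on either side, because the length of transcript annotated beyond them differed widely. They are printed 5′ to 3′ on the strand of the gene (GRCm38, all in the 3′ UTR), with the stem-loop in capitals:
Hist1h1c, chr13:23739507-23739532, plus strand: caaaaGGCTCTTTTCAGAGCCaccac
Hist1h1e, chr13:23621777-23621802, minus strand: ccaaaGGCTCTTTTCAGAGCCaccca
Hist3h2a, chr11:58955167-58955192, plus strand: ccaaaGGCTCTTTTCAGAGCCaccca
Hist4h4, chr6:136803993-136804018, minus strand: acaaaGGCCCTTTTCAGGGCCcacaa
Hist1h4d, chr13:23581945-23581970, plus strand: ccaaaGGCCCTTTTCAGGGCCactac
Hist1h4i, chr13:22040961-22040986, minus strand: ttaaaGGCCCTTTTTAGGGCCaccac
Hist1h2ae, chr13:23570663-23570688, minus strand: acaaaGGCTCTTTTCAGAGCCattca
Hist1h2ap, chr13:21833026-21833049, minus strand: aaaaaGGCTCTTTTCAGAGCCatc
Hist1h3c, chr13:23745042-23745067, minus strand: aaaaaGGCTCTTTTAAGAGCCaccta
Hist1h3b, chr13:23752815-23752840, plus strand: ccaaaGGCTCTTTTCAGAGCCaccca

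Hist1h2ap, a core H2A gene, was annotated with 3 bases beyond its stem-loop, Hist1h3b with 51 and Hist1h3c with 74. Hist1h2ae reached 151 bases beyond it, Hist1h4i 330 and Hist1h4d 770. Of the 10 shown, the longest ends belonged to Hist1h1c with 840 bases, Hist1h1e with 1153, Hist3h2a with 1643 and Hist4h4 with 2445. Hist1h2bc, the member with most UMIs, had 2 exons at chr13:23684199-23692908, a 3′ UTR of 742 bases and no stem-loop in its annotated transcript. Hist1h1b (chr13:21779883-21780625, minus strand) was annotated as ending at its stop codon, as were 9 other members, so its true 3′ end was not known from the annotation.

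Promoters of 51 members were matched in RefSeq (GRCm38.p6), and 2 identifiers named Hist2h2bb shared 1 promoter, which left 50 distinct promoters. In the 250 bases before the transcription start, the CCAAT box, searched as CCAAT on both strands, was found in 39 of 50 members' promoters (78%) and in 33.8% of the 32851 promoters in the table. By family it was found in 5 of 5 H1, 13 of 13 H2A, 11 of 11 H2B and 7 of 9 H3 promoters, but in 3 of 12 H4 promoters. TATAAA was found in 26 of 50 (52%) against 12.4% of all promoters. The octamer ATTTGCAT was found in 9 of 50 (18%) against 1.60%, in 5 H2A and 4 H2B promoters and in no H1, H3 or H4 promoter of these 50. The 120 bases before the start are shown for 2 H1 genes that differed in their link to the cell cycle and for the 2 H2A genes with most UMIs in Hist1. CCAAT, its reverse complement ATTGG and TATAAA are in capitals:
Hist1h1c, chr13:23738687-23738806, plus strand: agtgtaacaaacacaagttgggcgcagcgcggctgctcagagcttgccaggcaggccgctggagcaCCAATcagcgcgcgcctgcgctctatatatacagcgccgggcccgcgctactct
Hist1h1b, chr13:21780626-21780745, minus strand: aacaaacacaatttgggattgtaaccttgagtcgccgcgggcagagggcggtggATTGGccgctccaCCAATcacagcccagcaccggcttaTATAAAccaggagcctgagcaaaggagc
Hist1h2ap, chr13:21833476-21833595, minus strand: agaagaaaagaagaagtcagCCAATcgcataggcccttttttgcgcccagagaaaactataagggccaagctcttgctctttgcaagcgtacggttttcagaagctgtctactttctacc
Hist1h2ae, chr13:23571221-23571340, minus strand: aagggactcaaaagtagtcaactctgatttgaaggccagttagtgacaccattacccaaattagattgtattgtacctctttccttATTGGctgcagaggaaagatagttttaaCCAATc
All 4 windows held at least 1 CCAAT in either orientation, and a match is a description of letters only.

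Room air had 4234 barcodes with 39593888 UMIs and hyperoxia had 13223 with 111934936. After filters and the removal of likely doublets, 3680 room-air and 10473 hyperoxic cells were kept, with a median of 8074.5 and 7218 UMIs, and 13 kept barcodes occurred in both libraries. Cells were clustered without the histone genes and named from lung markers, so each name below means "like" that type. The cell cycle genes were not left out of the clustering. In sums over a cell type, fewer expressing cells and less RNA per cell cannot be told apart. The doublet removal took 129 room-air and 1238 hyperoxic cells, since its expected rate grows with the number of cells (3.39% against 10.6%). The removed hyperoxic cells carried 533 histone counts per 1000000 UMIs (CPM) against 301 CPM in those kept. Several comparisons between the libraries are therefore also given without any removal, where this is stated. The others are for kept cells only, among them the sums of alveolar and interstitial macrophages, the member counts by lineage and the T and B cell clusters.

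The members held 54248 UMIs in all, 15569 in room air and 38679 in hyperoxia, and they were spread very unevenly. The 5 H1 genes held 33.5% of them, the 16 H2B genes 26.3%, the 13 H2A genes 23.9%, the 13 H4 genes 10.4% and the 11 H3 genes 6.05%. Hist1h2bc alone held 21.4%, the 3 leading members 43.3% and the 12 leading members 82.5%. The Hist1 locus held 85.1% and Hist3, with only 2 genes, 7.93%. Raw UMIs were 11619 for Hist1h2bc, 6231 for Hist1h1e, 5661 for Hist1h1c, 5046 for Hist1h1b and 3882 for Hist3h2a. These are molecule counts at 3′ ends, and a level of one gene is not set against that of another gene here except as a share of captured molecules. Near-identical coding sequence was common: 50 members shared at least 1 window of 90 bases with another member, and in 19 members, which held 11.5% of the UMIs, at least 50% of windows were shared. The counts of such members, among them several Hist1h2a and Hist1h4 genes, are uncertain because reads could be split between copies or lost.

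The members separated mainly by the cell cycle. Cells with at least 2000 UMIs were ranked by the percent of their UMIs in 96 S phase and G2/M genes, none of them a clustered histone. Cells of at least 1% are called cycling and those under 0.25% non-cycling, as names for these ranges and not for a measured division. The summed level of all 58 members was 2888 CPM in cycling and 228 CPM in non-cycling cells of both libraries, a log2 ratio of 3.66 (3.63 to 3.70). Of 48 members with at least 30 UMIs, 42 were at least 2-fold higher in cycling cells and 2 were at least 2-fold lower, where 11.3% and 23.5% of all 15780 genes counted passed the same folds. The median log2 ratio was 4.49 over members and -0.17 over all genes counted. In room air the summed level was 206 CPM under 0.25%, 244 CPM from 0.25 to 0.5%, 301 CPM from 0.5 to 1%, 1828 CPM from 1 to 2% and 4584 CPM at 2% and over. In hyperoxia it was 237, 180, 181, 1887 and 3728 CPM in the same order, so in both libraries the level stood apart from 1% upward. There were 25 room-air and 60 hyperoxic cells between 0.8 and 1.2%, near that limit.

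The linker histones differed widely from each other on this scale. Hist1h1b, an H1 gene of dividing cells, was at 669 CPM in cycling and 1.35 CPM in non-cycling cells (log2 8.96, 8.72 to 9.21), and 95.9% of its room-air and 92.7% of its hyperoxic UMIs lay in cycling cells. Hist1h1a, another H1 gene, had a log2 ratio of 6.77 (6.43 to 7.13). Hist1h1e was at 270 against 29.9 CPM (log2 3.18, 3.08 to 3.27), with 40.0% of its room-air and 21.1% of its hyperoxic UMIs in cycling cells. Hist1h1c was at 71.4 against 35.3 CPM (log2 1.02, 0.85 to 1.18), with 14.5% and 5.45% in cycling cells. Most Hist1h1c molecules were thus counted in cells with few cell cycle transcripts, unlike those of Hist1h1b.

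Among H2A genes the same range was seen. Hist1h2ap was at 414 CPM in cycling and 1.40 CPM in non-cycling cells (log2 8.21, 7.97 to 8.46), Hist1h2ae at 435 against 2.05 CPM (7.73, 7.53 to 7.94) and Hist1h2ab at 87.0 against 0.327 CPM (8.06, 7.56 to 8.60). Hist2h2ac was at 47.9 against 3.41 CPM (3.81, 3.56 to 4.06). Hist3h2a, from the small Hist3 locus, went the other way with 13.9 CPM in cycling and 26.7 CPM in non-cycling cells (-0.94, -1.32 to -0.59). The H2B gene Hist1h2bc was likewise lower in cycling cells, at 48.7 against 77.1 CPM (-0.66, -0.86 to -0.47).

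In the H3 family, Hist1h3c was at 108 CPM in cycling and 0.149 CPM in non-cycling cells (log2 9.50, 8.78 to 10.31). Hist1h3b had 0 UMIs in non-cycling cells, and against a floor of 3 counts it was higher in cycling cells by at least 9.73 on the log2 scale. Hist2h3c1 and Hist2h3c2 were lower in cycling cells, with log2 ratios of -1.37 (-2.82 to -0.23) and -2.64 (-7.96 to -0.14), and their intervals were wide. In the H4 family no member counted passed a log2 ratio of 3.85, the value of Hist1h4d (135.9 against 9.45 CPM). Hist1h4i followed at 3.47 (3.23 to 3.70), while Hist4h4 hardly differed, at 4.49 against 4.96 CPM (-0.14, -0.85 to 0.48).

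The annotated 3′ end differed between the members at the ends of this scale. The 19 members with a 3′ UTR of at least 300 bases held 65.3% of member UMIs, and the 18 of them that were counted had log2 cycling ratios from -2.64 to 6.49 with a median of 2.68. Of these, 8 were under 2 and 1 was at 6 or more, the H1 gene Hist1h1d (6.49), which was named after its value was seen. The 36 members with a shorter 3′ UTR held 34.3% of UMIs, and the 27 counted had ratios from 2.62 to 9.73 with a median of 6.77. None of these 27 was under 2 and 15 were at 6 or more. Several of the short ends are annotated only to the stop codon, so the length is that of the annotation and not of the captured RNA. The presence of the stem-loop in the annotation did not follow the same order: the 33 counted members with one had a median of 3.72 and the 12 counted without one a median of 6.79. The 15 members annotated without a stem-loop had a median 3′ UTR of 0 bases. Most of those annotated transcripts end before a stem-loop could be seen, so these medians do not show that such genes lack it.

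**Figure D1:**
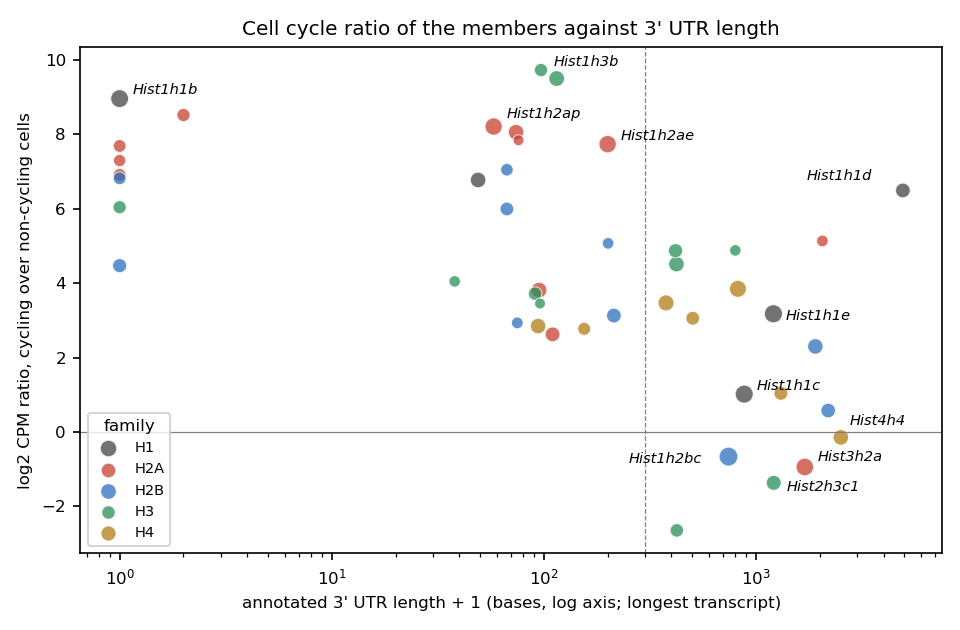
Log2 ratio of CPM in cycling over non-cycling cells (vertical axis) against annotated 3′ UTR length plus 1 base (horizontal log axis) for the members counted, coloured by histone family, with larger points for more UMIs; the dashed line marks 300 bases. The members to its right reach down to -2.64, while none to its left is below 2.62.

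The other genes of the histone pathway were less tied to these ranges. All 46 S phase genes counted and 49 of 50 G2/M genes were at least 2-fold higher in cycling cells, but they define the ranges and are given only for scale. Of 27 genes for transcription, 3′ end processing and decay of histone mRNA, 10 were at least 2-fold higher and 0 lower in cycling cells (median log2 0.62). Of 28 histone chaperone genes, which escort histones to DNA, 17 were higher and 1 lower (median 1.17). Of 11 counted histone variant genes that lie outside the clusters, 6 were higher and 0 lower (median 1.18). The chaperone list shares Mcm2, Chaf1b, Anp32e and Hjurp with the cell cycle lists. Hemoglobin and other red blood cell genes also moved with the ranges, with 5 of 5 at least 2-fold higher in cycling cells of both libraries, while in lymphocytes 4 of 4 counted were lower, and their part in the histone ratios was not tested.

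The summed level also differed between cell types. Orders of cell types are given over the 17 named types with at least 50 cells in each library, so a cycling endothelial cluster of 32 room-air cells (3413 CPM) and 25 hyperoxic cells (749 CPM) is left out of them. In room air the summed member level was highest in T cells (1348 CPM in 226 cells), then in interstitial macrophages (724 CPM), alveolar macrophages (591 CPM) and dendritic cells (574 CPM). It was lowest in nonclassical monocytes (108 CPM in 250 cells) and classical monocytes (113 CPM). A cluster of 51 room-air and 211 hyperoxic cells held 2347 of 2467 room-air and 4375 of 4830 hyperoxic T cell histone UMIs. The T cell clusters of 94 and 67 room-air cells were at only 105 and 108 CPM. In hyperoxia T cells were at 871 CPM, fibroblasts at 488 CPM and neutrophils at 436 CPM, while gCap ECs were at 141 CPM. A member UMI was found in 64.0% of room-air and 62.9% of hyperoxic cells. However, 73 room-air cells (1.98%) held 50% of all member UMIs, against 749 hyperoxic cells (7.15%).

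**Figure D2:**
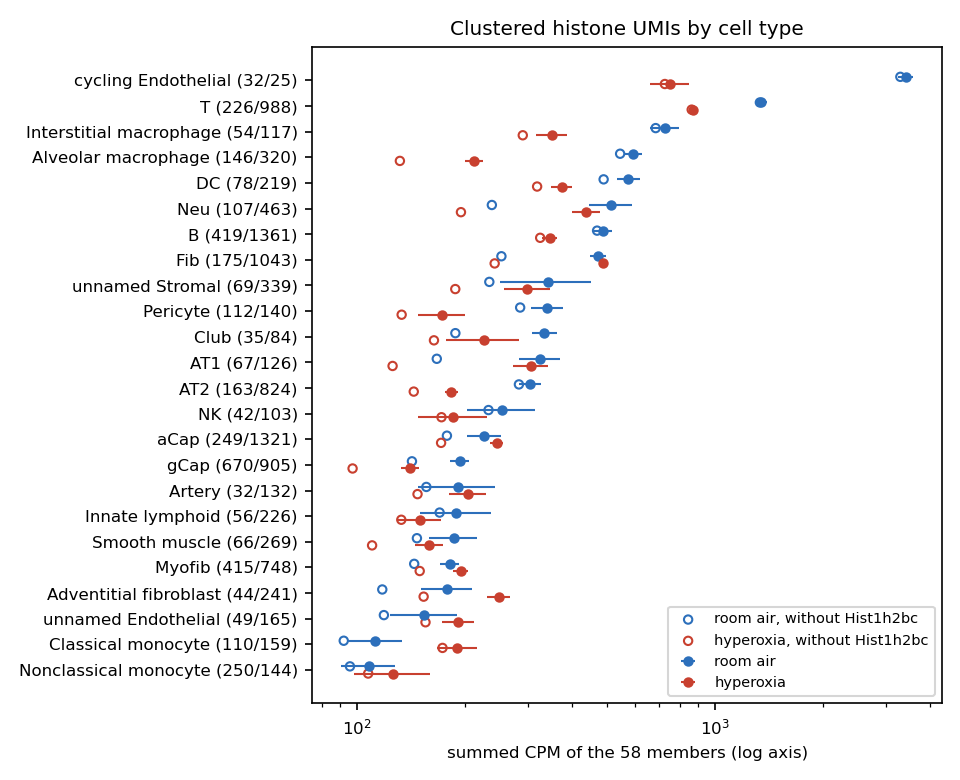
Summed CPM of the 58 members (log axis) in each cell type, named from markers, for room air (blue) and hyperoxia (red), with cell numbers in brackets; filled circles are all members with exact 95% counting intervals and open circles leave out Hist1h2bc. In fibroblasts, neutrophils and AT1 cells the open circles lie well below the filled ones, whereas in T cells and the cycling endothelial cluster they nearly coincide.

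Hist1h2bc was highest in neutrophils and fibroblasts. In room air it stood at 275 CPM (227 to 331) in neutrophils, 218 CPM (202 to 236) in fibroblasts and 157 CPM (130 to 190) in AT1 cells, and in hyperoxia at 241 CPM (213 to 271), 245 CPM (236 to 254) and 180 CPM (155 to 209). The order of neutrophils and fibroblasts was turned between the libraries, and their intervals overlapped in both. T cells were lowest in both, at 11.5 and 8.83 CPM. A Hist1h2bc UMI was found in 89.1% (83.6 to 93.3) of room-air and 80.6% (78.1 to 83.0) of hyperoxic fibroblasts, whose median depths were 17896 and 11875 UMIs. With every cell thinned to 2000 UMIs the shares were 32.6% and 34.4%. Neutrophils are short-lived cells that have left the cell cycle, and 51.4% of the room-air and 35.6% of the hyperoxic ones had a Hist1h2bc UMI at median depths of only 3174 and 2237 UMIs.

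Hist1h1b and Hist1h2ae had the opposite order. Of the same 17 types, Hist1h1b was highest in T cells, at 333 CPM (307 to 360) in room-air cells against 206 CPM (194 to 218) in hyperoxic ones, followed in room air by interstitial macrophages (148 CPM, 119 to 182) and alveolar macrophages (95.1 CPM, 82.2 to 110). Hist1h2ae was at 221 CPM (200 to 244) and 106 CPM (97.8 to 115) in T cells. Neutrophils were set beside them as cells that should lack the gene, and 0 of 463 hyperoxic and 1 of 107 room-air neutrophils had a Hist1h1b UMI. At their depth of 2237 UMIs, the upper limit of 0.794% for the former is one of cells with a UMI and not of cells expressing the gene. Of T cells, whose median depths were 6906.5 and 4896.5 UMIs, 11.5% (7.65 to 16.4) of room-air and 6.88% (5.38 to 8.64) of hyperoxic ones had a Hist1h1b UMI. After thinning to 2000 UMIs it was 9.45% and 5.33% of T cells, against 0 of 94 and 0 of 304 neutrophils (upper limits 3.85% and 1.21%).

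Hist1h1c was shared between these patterns. In room air it was highest in neutrophils (86.0 CPM, 59.9 to 120), dendritic cells (59.6 CPM) and fibroblasts (43.5 CPM), and in hyperoxia in fibroblasts (90.5 CPM, 85.3 to 96.0) and neutrophils (82.0 CPM, 66.0 to 101). Hist1h4i, an H4 gene, was highest in neutrophils in both libraries, at 46.7 CPM (28.1 to 72.9) and 36.0 CPM (25.7 to 49.1), and next in T cells. Hist4h4 was highest in AT2 cells, at 18.7 CPM (13.8 to 24.8) and 12.1 CPM (10.2 to 14.2). Hist3h2a was broad, from 55.4 CPM in room-air interstitial macrophages to 4.37 CPM in room-air T cells. Of the 17 types Hist1h1e was highest in T cells, at 116 and 82.9 CPM, but was also above 40 CPM in hyperoxic pericytes, myofibroblasts and aCap ECs. Neighbouring types in these orders mostly had overlapping intervals.

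**Figure D3:**
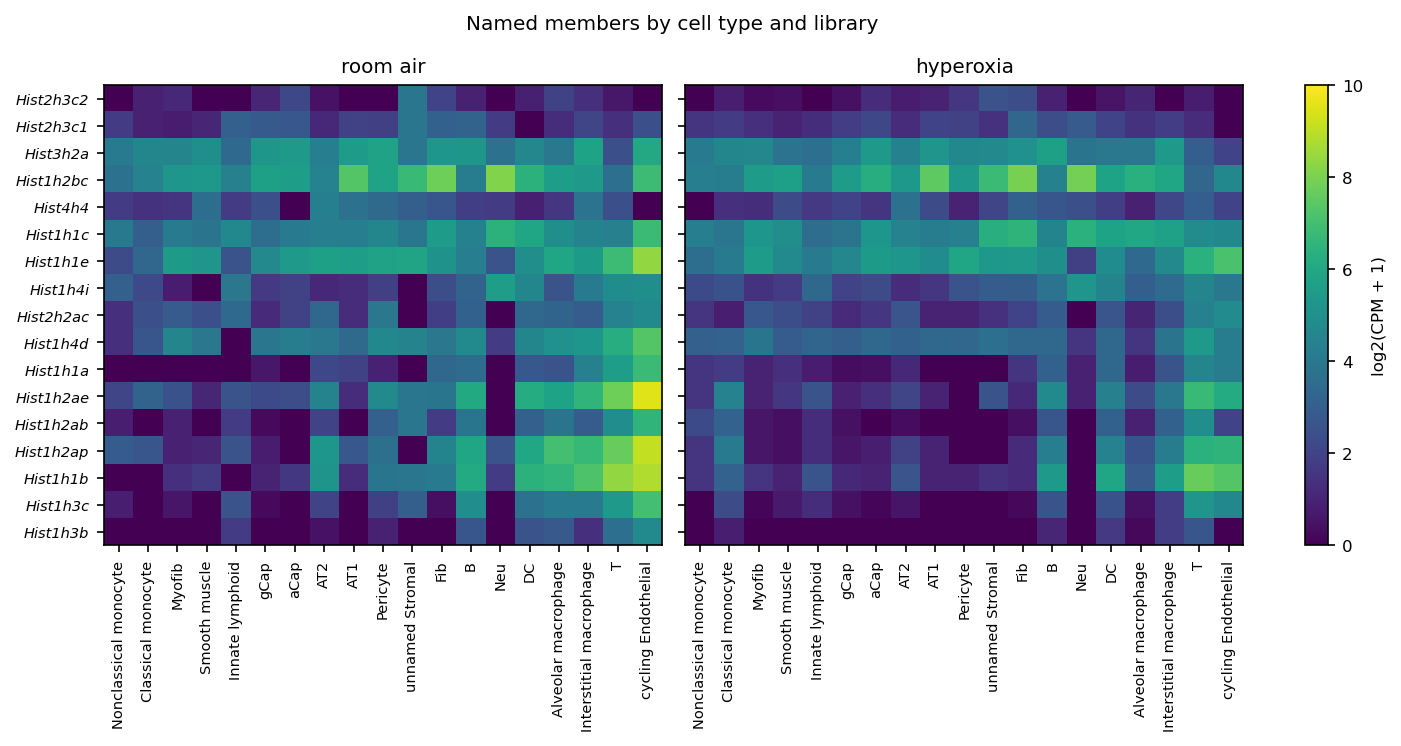
Level of each named member (rows, as log2 of CPM plus 1) in each marker-named cell type (columns, in order of rising room-air level summed over all members) in room air (left) and hyperoxia (right). Rows from Hist2h3c2 down to Hist1h1c are present in most types, while the lower rows, from Hist1h1a to Hist1h3b, are near 0 in most types and bright in T cells and the cycling endothelial cluster.

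Across 41 sums, each 1 cell type in 1 library, the genes whose pattern was most like that of Hist1h2bc were Ccpg1os (Spearman 0.74), Iscu (0.71), Lyrm2 (0.70), Blcap (0.67) and Coq4 (0.66). Those most like Hist1h3b were Nusap1 (0.80), Cdca2 (0.79), Casc5 (0.79), Ube2c (0.79) and Cdca3 (0.78), which include mitotic spindle and cell division genes. Nusap1, Cdca2, Ube2c and Cdca3 belong to the G2/M list. The sums share 2 libraries and differ in depth, so the values only describe likeness.

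The first comparison between the groups was over all kept cells. The summed member level was 395 CPM in room-air cells against 301 CPM in hyperoxic ones, with a log2 ratio of -0.39 (-0.42 to -0.37). With no doublet removal it was 394 against 348 CPM, a log2 ratio of -0.18. Of 48 members counted, 13 were at least 2-fold lower in hyperoxia and 0 higher, where 6.33% and 2.7% of 15976 genes passed the same folds, and the member median was -0.63 against -0.03 over all genes. With no removal, 7 of 50 members were at least 2-fold lower and 0 higher (background 3.7% and 3.13%), and the member median was -0.15. Of those 7 members, 6 were H2A genes and 1 was an H3 gene. These 7, the H2A genes Hist1h2ae, Hist1h2ap, Hist1h2af, Hist1h2an, Hist1h2ai and Hist1h2ag and the H3 gene Hist1h3b, were also among the 13, while the count and the size of the difference both moved with the removal.

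By family the H2A sum was 124 CPM in room-air cells against 56.5 CPM in hyperoxic ones (log2 -1.14). The H3 sum was 24.7 against 16.6 CPM (-0.57) and the H4 sum 44.4 against 30.2 CPM (-0.56). The H1 sum was 118 against 103 CPM (-0.20), whereas the H2B sum was higher in hyperoxia, at 94.4 against 83.8 CPM (0.17). Hist1h2bc makes up most of the H2B sum, and without it the level of all other members was 331 CPM in room-air cells against 221 CPM in hyperoxic ones (-0.58). Of the H2A genes, 6 of 12 counted were at least 2-fold lower with the removal (median -1.32) and 6 of 12 without it (median -0.85).

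Of the named members, the H2A gene Hist1h2ap had the lowest ratio. It was at 37.5 CPM (35.5 to 39.5) in room-air cells against 8.92 CPM (8.31 to 9.57) in hyperoxic ones, with a log2 ratio of -2.07 (-2.20 to -1.94), which was -1.35 with no removal. Hist1h2ae was at 36.9 CPM (34.9 to 38.9) against 11.1 CPM (10.4 to 11.8), a log2 ratio of -1.73 (-1.85 to -1.61) and -1.09 with no removal. Hist1h2ab was at 5.50 against 2.91 CPM (-0.92), a difference that shrank to -0.15 with no removal. Hist3h2a was close to equal, at 27.9 against 24.8 CPM (-0.17, -0.28 to -0.07). Hist1h2af, Hist1h2an, Hist1h2ai and Hist1h2ag, named after their values were seen, had log2 ratios of -2.55, -2.52, -2.04 and -1.98 from 41 to 150 raw UMIs each. Apart from Hist1h2ae, the H2A genes past 2-fold shared 66.5% to 92.4% of their 90-base windows with other members, so the split among them is uncertain. Hist1h2ae shared 31.9% of its windows.

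Of the linker histones, Hist1h1b was at 42.3 CPM (40.2 to 44.5) in room-air cells against 20.3 CPM (19.4 to 21.3) in hyperoxic ones, with a log2 ratio of -1.06 (-1.16 to -0.96). With no removal it was -0.40, so it passed 2-fold only with the removal. Hist1h1a gave the same -1.06 (-1.32 to -0.80), and -0.42 with no removal. Hist1h1e was at 39.9 against 36.8 CPM (-0.12, -0.21 to -0.03) and turned to 0.08 with no removal. Hist1h1c had the highest log2 ratio of the named members given here, at 26.3 CPM (24.68 to 28.03) in room-air cells against 40.9 CPM (39.6 to 42.2) in hyperoxic ones (0.64, 0.53 to 0.74), and 0.65 with no removal. Hist1h2bc was at 64.0 CPM (61.4 to 66.7) against 79.8 CPM (77.9 to 81.7), a log2 ratio of 0.32 (0.25 to 0.39) and 0.35 with no removal. Fibroblasts, among the types highest in Hist1h1c and Hist1h2bc, were 175 of 3680 room-air and 1043 of 10473 hyperoxic kept cells. The ratios of both genes over all cells thus also depend on the mix of cell types.

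Among H3 and H4 genes, Hist1h3b had the lowest named ratio, at 1.83 CPM in room-air cells against 0.514 CPM in hyperoxic ones (-1.84, -2.41 to -1.27), and -1.15 with no removal. Hist1h3c was at 7.61 against 3.12 CPM (-1.29, -1.53 to -1.04), and -0.54 with no removal. Hist1h4d was at 22.1 against 10.6 CPM (-1.06, -1.199 to -0.923), and -0.77 with no removal. Hist1h4i (6.19 against 6.70 CPM, 0.11), Hist4h4 (4.90 against 4.87 CPM, -0.01), Hist2h2ac (6.08 against 4.60 CPM, -0.40), Hist2h3c1 (3.37 against 3.16 CPM, -0.09) and Hist2h3c2 (1.20 against 1.25 CPM, 0.05) were all within 2-fold.

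Cycling cells made up a smaller share of the hyperoxic library after doublet removal. They were 116 of 3305 room-air cells (3.51%, 2.91 to 4.19) and 182 of 9191 hyperoxic cells (1.98%, 1.71 to 2.29). With no removal they were 3.47% and 3.06%. The removal took 3 cycling room-air cells and 137 cycling hyperoxic cells. Among removed hyperoxic cells 11.2% were cycling, against 1.98% of those kept, and whether these were real doublets was not tested. When the removal was doubled they were 2.39% and 0.70%, while the histone ratio over all cells was -0.36. The comparisons that follow were made within each range.

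In non-cycling cells the summed level was higher in hyperoxia, at 206 CPM in room-air cells against 237 CPM in hyperoxic ones (log2 0.20, 0.16 to 0.24), and 0.19 with no removal. Of 31 members counted, 1 was at least 2-fold higher and 0 were lower (background 2.84% and 5.64%), and the member median was -0.01 against -0.03 over all genes. That member was Hist1h1a, with a log2 ratio of 1.29 from 12 room-air and 72 hyperoxic UMIs. The H1 sum was 50.4 against 74.9 CPM (0.57) and the H2B sum 74.3 against 93.5 CPM (0.33), while the H2A sum was 41.3 against 34.7 CPM (-0.25) and the H4 sum also lower in hyperoxia (-0.32). Hist1h1c carried most of the H1 difference, at 22.1 CPM in room-air cells against 40.7 CPM in hyperoxic ones (0.88, 0.762 to 1.003). Hist1h2bc was at 62.5 against 83.0 CPM (0.41, 0.34 to 0.48). Hist1h4d was lower here too, at 12.9 against 8.03 CPM (-0.69), and Hist1h2ae was at 3.16 against 1.59 CPM (-0.99). Non-cycling fibroblasts held 1163 of the 6378 room-air and 6098 of the 17997 hyperoxic histone UMIs in this range, at 394 against 488 CPM. The sums over all non-cycling cells therefore also depend on the share of fibroblasts, which was not separated from levels within cell types.

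In cycling cells the summed level was lower in hyperoxia, at 3390 CPM in room-air cells against 2484 CPM in hyperoxic ones (-0.45, -0.50 to -0.40), and 3419 against 2652 CPM with no removal (-0.37). When the removal was doubled, 76 room-air and 56 hyperoxic cycling cells were left, at 2966 against 776 CPM (-1.94, -2.07 to -1.80). The size of this ratio thus moved with the removal. Of 34 members counted, 6 were at least 2-fold lower and 0 higher (background 6.73% and 2.84%), and all 6 were among the 11 counted H2A genes. With no removal, 3 of 39 were at least 2-fold lower, again all H2A genes, and 1 was higher (background 3.54% and 4.29%). The H2A sum was 1463 against 774 CPM (-0.92) and 1489 against 853 CPM with no removal (-0.80). The sums of the other families differed less, at -0.15 for H1, -0.16 for H3 and -0.35 for H4.

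Hist1h2ap was at 612 CPM in room-air and 255 CPM in hyperoxic cycling cells (-1.26), and -1.14 with no removal. Hist1h2ae was at 580 against 318 CPM (-0.87), and 599 against 337 CPM with no removal (-0.83). Hist1h2ab, another H2A gene of the Hist1 locus, did not follow, at 88.1 against 86.0 CPM (-0.04). Hist1h1b was at 710 against 635 CPM (-0.16) and Hist1h1e at 280 against 262 CPM (-0.09), so the 2-fold difference of Hist1h1b over all cells was not found within the cycling range. Hist1h4d was at 181 against 99.9 CPM (-0.85), and -0.55 with no removal. Hist1h4i was higher in hyperoxia, at 35.9 against 56.3 CPM (0.65, 0.24 to 1.07).

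**Figure D4:**
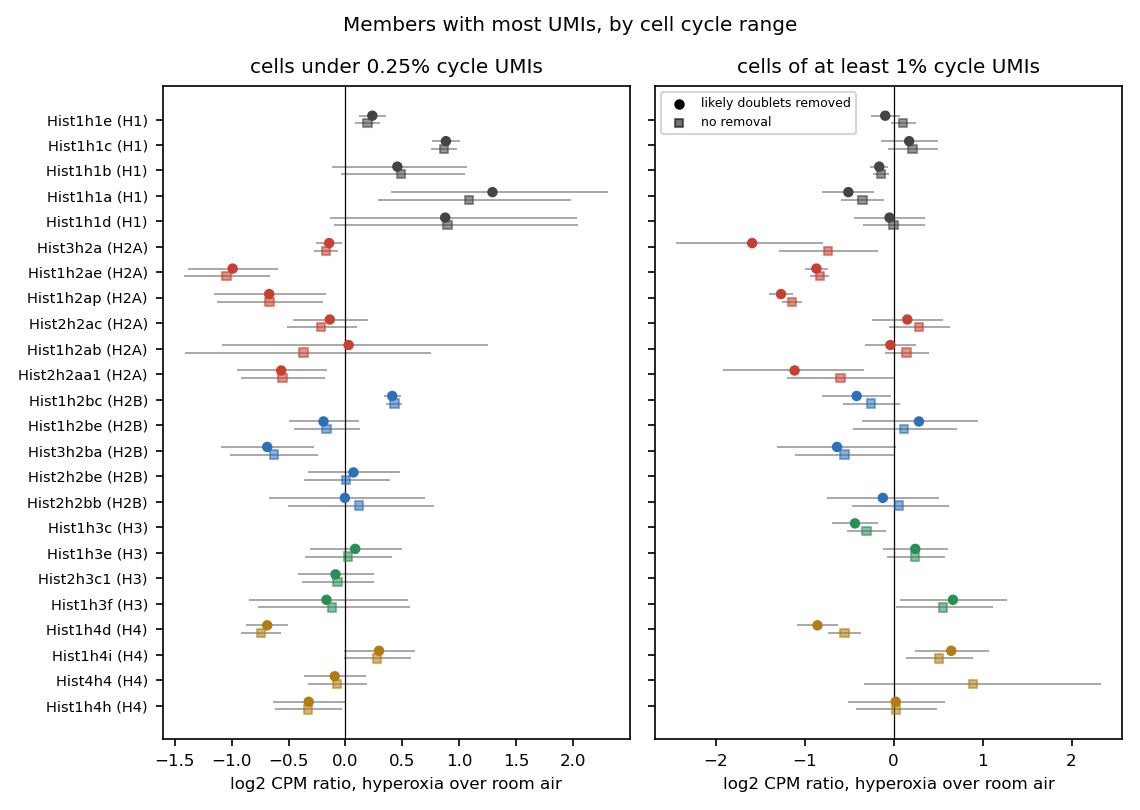
Log2 CPM ratio of hyperoxia over room air for up to 24 members with most UMIs in non-cycling cells (left) and cycling cells (right), with exact 95% counting intervals; circles have likely doublets removed, squares have no removal, and colours are families. Hist1h1c sits near 0.88 on the left, and on the right Hist1h2ap (-1.26) and Hist1h2ae (-0.87) lie below 0 under both treatments while most H1 and H3 genes lie near 0.

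Other gene lists moved differently within cycling cells. Of 46 S phase genes, 3 were at least 2-fold higher in hyperoxia and 0 lower (median 0.52), and of 50 G2/M genes 0 were higher and 14 lower (median -0.83). The cycling cells of the 2 libraries thus differed in their mix of cell cycle transcripts. When cycling cells of both libraries were put in 3 equal ranges of the part of their cycle-list UMIs in the S phase list, the summed histone level was 3260 CPM in the lowest range, 2593 CPM in the middle and 100 CPM in the highest. In room air alone the lowest and middle ranges were at 3750 and 2642 CPM, and in hyperoxia at 2655 and 2569 CPM. The highest range held only 12 cells, 1 of room air and 11 of hyperoxia. Of 26 genes for histone mRNA production and decay, 0 were past 2-fold in either direction (median 0.10), and of 28 chaperone genes 1 was higher and 0 lower (median 0.14). Of 11 histone variant genes 0 were higher and 2 lower (median -0.23). All 4 red blood cell genes counted were lower in hyperoxic cycling cells (median -3.72), which was not tested for a part in the histone ratios.

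Over all kept cells the same lists gave 0 of 27 histone mRNA genes past 2-fold (median -0.04), 0 of 28 chaperone genes (median -0.04) and 1 of 11 variant genes lower (median -0.15). Slbp, which binds the stem-loop, was at 83.6 CPM in room-air cells against 70.1 CPM in hyperoxic ones (-0.25). Lsm11 (0.32), Cstf2 (0.27) and Lsm1 (0.27), which act in end processing or decay, were slightly higher. Among chaperones Asf1b (-0.88) and Hjurp (-0.39) were lower and Ipo4 (0.37) and Mcm2 (0.34) higher. The variant past 2-fold was the linker variant H1fx, at 24.2 CPM in room-air cells against 8.64 CPM in hyperoxic ones (-1.48), while H2afx was at -0.58, H2afy2 at -0.56 and Cenpa at -0.44. Of the cell cycle lists 3 of 46 S phase genes were lower, Rrm2 (-1.12), Brip1 (-1.08) and Rad51ap1 (-1.06), with E2f8 at -0.87. Of 50 G2/M genes 35 were lower, among them Pbk (-2.09), Nusap1 (-1.94) and Cenpf (-1.92), and 1 was higher, Psrc1 (2.20). Of 14 p53 target genes 9 were higher and 0 lower (median 1.24), led by Eda2r (3.27), the cell cycle inhibitor Cdkn1a (2.21), Zmat3 (1.75) and Gdf15 (1.57). The 5 red blood cell genes had a median of 0.22, with Alas2 at 0.49, Hba-a1 at 0.25, Hbb-bs at 0.22 and Hba-a2 at 0.14, and 0 of them past 2-fold.

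By lineage the summed level was lower in hyperoxia in 4 of 5. It was 376 against 205 CPM in ECs (-0.87, -0.94 to -0.81), 318 against 193 CPM in epithelial cells (-0.72, -0.81 to -0.63), 424 against 271 CPM in myeloid cells (-0.64, -0.72 to -0.57) and 762 against 558 CPM in lymphocytes (-0.45, -0.51 to -0.39). In stromal cells it was higher, at 273 against 322 CPM (0.24, 0.18 to 0.29), but without Hist1h2bc the stromal ratio was 0.0038 (-0.07 to 0.08). Fibroblasts, at 472 against 488 CPM, were 175 of 881 room-air and 1043 of 2780 hyperoxic stromal cells. The stromal sum thus also depends on the mix of stromal types. Within non-cycling cells the 5 lineage ratios were 0.01 in ECs, -0.38 in epithelial cells, 0.23 in myeloid cells, 0.38 in lymphocytes and 0.40 in stromal cells. With no removal the 5 lineage ratios over cells of all ranges were -0.57, -0.29, -0.53, -0.05 and 0.35 in the same order. The epithelial ratios also depend on the mix of types. Club cells, 35 in room air and 84 in hyperoxia, held 613 of 1624 and 73 of 2604 epithelial histone UMIs among kept cells. The ratio in non-cycling AT2 cells alone was -0.05. Without 4 clusters of over 1000 CPM, a choice made after seeing the data and described further on, the ratio was -0.0055 in ECs, -0.18 in myeloid cells and 0.18 in lymphocytes. When the doublet removal was doubled it was -0.023 in ECs. Of members counted, 11 of 23 were at least 2-fold lower in ECs (background 5.76%), 5 of 16 in epithelial cells (10.5%), 9 of 22 in myeloid cells (4.63%), 5 of 37 in lymphocytes (1.22%) and 6 of 26 in stromal cells (3.33%). None was at least 2-fold higher in the first 4 of these lineages (background 3.72%, 1.92%, 2.79% and 3.41%), and 2 were in stromal cells (3.91%), Hist1h1c and Hist1h4i. Hist1h2ap was past 2-fold lower in all 5 lineages and Hist1h2ae in all but lymphocytes, though Hist1h2ae was past 2-fold lower in T cells and in B cells taken alone.

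Of the 17 types, the lowest ratios were those of alveolar macrophages, interstitial macrophages, pericytes and AT2 cells, and the highest was that of classical monocytes. Alveolar macrophages were at 591 CPM in room-air cells against 213 CPM in hyperoxic ones (-1.47), with 7 of 11 counted members at least 2-fold lower and 1, Hist1h1c, higher (background 8.43% and 2.64%). Without 1 cluster of 21 room-air and 7 hyperoxic alveolar macrophages the ratio turned to 0.43. Interstitial macrophages were at 724 against 350 CPM (-1.05), with Hist1h1b at 148 against 46.5 CPM. T cells were at 1348 against 871 CPM (-0.63), with 7 of 31 members lower and 1 higher (background 1.62% and 3.05%), but the ratio was 0.12 with no removal. B cells were at 487 against 345 CPM (-0.49) and at 0.37 with no removal. Neither T nor B cells therefore had a direction that held under both treatments. Classical monocytes were at 113 against 191 CPM (0.76, 0.45 to 1.09), at 1.33 with no removal and at -0.063 when the removal was doubled. There 3 cycling hyperoxic cells held 112 of the 241 histone UMIs, and the ratio in non-cycling cells was 0.0045 (-0.40 to 0.42).

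Among resident lung cells, gCap ECs were at 194 CPM in room-air cells against 141 CPM in hyperoxic ones (-0.46, -0.58 to -0.33), and -0.40 with no removal. There 4 of 12 members were at least 2-fold lower and 0 higher (background 4.69% and 3.14%), namely Hist1h4d, Hist2h3c1, Hist3h2a and Hist3h2ba. aCap ECs were at 227 against 246 CPM (0.12, -0.05 to 0.29), with Hist1h1c higher. Pericytes were at 340 against 173 CPM (-0.98) and at -0.84 with no removal. There 1 cycling room-air cell held 104 of 373 histone UMIs, and the non-cycling ratio was -0.56 (-0.85 to -0.27). AT2 cells were at 304 against 183 CPM (-0.73) and at -0.60 with no removal, but 3 cycling room-air cells held 343 of 780 histone UMIs and the non-cycling ratio was -0.05 (-0.20 to 0.11). Fibroblasts were at 472 against 488 CPM (0.05), with 249 of 1422 room-air UMIs in 1 cycling cell and a non-cycling ratio of 0.31 (0.22 to 0.40). Myofibroblasts (182 against 195 CPM, 0.10), AT1 cells (325 against 306 CPM, -0.08) and neutrophils (514 against 436 CPM, -0.24) differed less.

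Within non-cycling cells of 21 types and unnamed clusters, the interval of the summed ratio lay wholly above 0 in 4 and wholly below in 4. Hist1h1c was higher in hyperoxia in endothelial, stromal and myeloid types. Of the 21 compared, 7 had an interval wholly above 0 and 0 had one wholly below, and the 6 with a log2 ratio above 1 are given first. It was at 11.7 CPM in room-air and 38.5 CPM in hyperoxic aCap ECs (1.72, 0.97 to 2.57) and at 16.3 against 37.3 CPM in myofibroblasts (1.19, 0.86 to 1.54). In fibroblasts it was at 41.7 against 90.7 CPM (1.12, 0.85 to 1.40), in alveolar macrophages at 27.7 against 61.5 CPM (1.15, 0.66 to 1.68), in interstitial macrophages at 23.4 against 50.8 CPM (1.12, 0.16 to 2.21) and in smooth muscle cells at 13.9 against 29.0 CPM (1.06, 0.18 to 2.07). With no removal the same 6 ratios ran from 1.12 to 1.50. In gCap ECs it was at 11.5 against 13.5 CPM (0.23, -0.27 to 0.74), in dendritic cells at 43.7 against 48.6 CPM (0.15, -0.44 to 0.77) and in T cells at 12.97 against 11.4 CPM (-0.19, -1.26 to 1.01), and these 3 intervals hold 0. The interval of the ratio in aCap ECs did not overlap that in gCap ECs.

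Hist1h2bc had an interval wholly above 0 in 6 of the 21 and wholly below in 1. The highest of these ratios was in non-cycling AT2 cells, at 18.3 CPM in room-air cells against 37.0 CPM in hyperoxic ones (1.01, 0.56 to 1.50). Nonclassical monocytes (1.13) and NK cells (1.67) had higher ratios, from at most 8 UMIs a library and with intervals that hold 0. It was also higher in aCap ECs, at 47.7 against 73.2 CPM (0.62, 0.24 to 1.02), and in alveolar macrophages, at 55.4 against 79.3 CPM (0.52, 0.16 to 0.89), but lower in dendritic cells, at 87.3 against 50.3 CPM (-0.79, -1.27 to -0.32). Hist3h2a had an interval below 0 in 4 and above 0 in 1, B cells, at 36.0 against 50.9 CPM (0.50, 0.08 to 0.94). It was lower in gCap ECs, at 39.1 against 21.5 CPM (-0.86, -1.19 to -0.54), and in pericytes, at 51.4 against 24.2 CPM (-1.08, -1.86 to -0.35), and not in aCap ECs, at 36.7 against 42.4 CPM (0.21, -0.24 to 0.68). Hist1h4d had an interval below 0 in 6 and above 0 in 0, and its ratios in T cells (1.14) and nonclassical monocytes (1.72) had intervals that hold 0. It was lower in myofibroblasts (22.9 against 13.8 CPM, -0.73), gCap ECs (14.2 against 7.49 CPM, -0.92), aCap ECs (17.2 against 9.08 CPM, -0.92) and fibroblasts (13.9 against 9.04 CPM, -0.62). Hist1h2ae had an interval below 0 in 3 and above 0 in 0. It was lower in gCap ECs at 3.65 against 0.956 CPM (-1.93, -3.55 to -0.54) and in myofibroblasts at 4.26 against 0.949 CPM (-2.17, -3.46 to -1.01), from 6 to 24 UMIs a library.

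Of the clusters, 4 had over 1000 summed histone CPM in a library, and they are described apart because a few cells set their values. They held 39.4% of room-air histone UMIs in 3.70% of cells and 21.2% of hyperoxic ones in 4.09% of cells. Without them the sum over all other cells was 252 CPM in room-air cells against 245 CPM in hyperoxic ones (-0.04), with 5 of 35 members at least 2-fold lower and 0 higher (background 6.11% and 2.7%). One was a T cell cluster led by Ccl5, Nkg7 and Gzma, of 51 room-air and 211 hyperoxic cells, at 3179 against 2290 CPM (-0.47). In it 2 of 24 members were lower and 1 higher (background 1.51% and 4.02%), with Hist1h2ap at 500 against 229 CPM and Hist1h1b at 822 against 596 CPM. A B cell cluster led by Vpreb3, Igll1 and Rag1, genes of B cell precursors, had 32 and 185 cells at 4243 against 1270 CPM (-1.74), with 8 of 12 members lower and 0 higher (background 4.86% and 5.44%). In that cluster the S phase list was nearly equal (-0.05) and the G2/M list lower (-1.64).

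The widest difference of any cluster was in the cycling ECs, which carried gCap markers beside mitotic genes. They had 32 room-air and 25 hyperoxic cells at 3413 CPM (3245 to 3587) and 749 CPM (659 to 849), a log2 ratio of -2.19 (-2.39 to -1.99). Here 11 of 12 members were at least 2-fold lower and 0 higher (background 9.12% and 7.59% of 4625 genes), with Hist1h2ae at 727 against 69.2 CPM, Hist1h2ap at 538 against 90.3 CPM, Hist1h1b at 453 against 159 CPM and Hist1h1e at 330 against 138 CPM. The summed G2/M list was at 23706 against 6661 CPM, while the S phase list was higher in hyperoxia, at 4424 against 9388 CPM. With no removal the corresponding cluster had 37 and 77 cells at 3536 against 2221 CPM, and its S phase list was at 4372 against 5347 CPM and its G2/M list at 22867 against 15366 CPM. The size of the difference in cycling ECs thus moved with the cells that were removed as doublets.

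The cluster supplied 31 of the 33 room-air ECs in the cycling range and all 1550 of their histone UMIs. Among hyperoxic ECs in that range it supplied 24 of 35 cells and 238 of 340 histone UMIs. Cycling ECs taken by range and not by cluster were thus largely the same cells, and their ratio is no separate check. There were 33 in room air at 3349 CPM and 35 in hyperoxia at 746 CPM (-2.17, -2.34 to -1.996), with 10 of 12 members at least 2-fold lower and 0 higher (background 8.33% and 7.8%). With no removal there were 36 and 84 at 3568 and 2025 CPM (-0.82, -0.90 to -0.73), with 7 of 20 members lower and 0 higher (background 3.97% and 5.12%). When the removal was doubled only 2 and 17 were left, at 35.2 and 61.7 CPM (0.81, -1.92 to 6.22), so no direction was seen there. Cycling lymphocytes were 41 and 114 at 4593 and 3217 CPM (-0.51, -0.58 to -0.45), and 3525 CPM in hyperoxia with no removal (-0.38). In them Hist1h2ap was at 725 against 326 CPM (-1.16) and Hist1h2ae at 778 against 435 CPM (-0.84), and 4 of 29 members were at least 2-fold lower and 0 higher (background 2.25% and 2.39%). Cycling myeloid cells, 36 and 22, were at 2189 and 2113 CPM (-0.05, -0.17 to 0.07), with 4 of 14 members higher and 1 lower (background 3.01% and 5.43%), and at -0.35 with no removal.

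**Figure D5:**
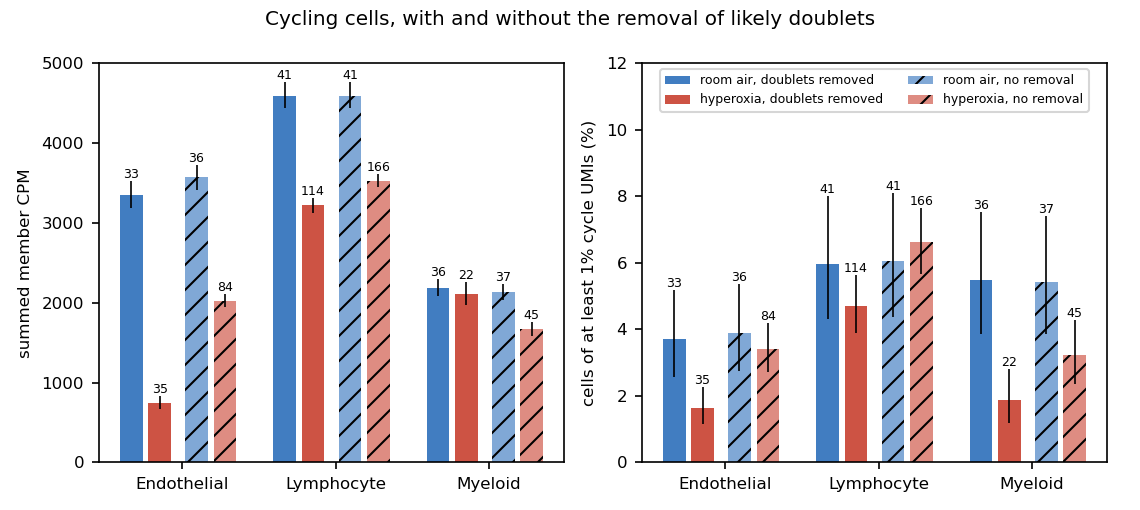
Summed CPM of the 58 members in cycling cells (left, bars from 0 with exact 95% counting intervals) and the percent of cells that were cycling (right, with exact binomial intervals) in 3 lineages, named from markers, for room air and hyperoxia, with likely doublets removed (plain) and with no removal (hatched); numbers are cycling cells. Hyperoxic cycling ECs are at 746 CPM with the removal and 2025 CPM without it, both below the room-air bars, while myeloid bars nearly match with the removal.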

How the data were processed

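Lung cells of 1 room-air and 1 hyperoxic library, each from 8 pooled pups, were measured. The authors aligned reads to mm10, counted UMIs with Cell Ranger and deposited raw counts per gene and barcode, with no normalization. The submitters' processing notes name version 2.1.1, the protocol 6.1.1 with Seurat 4.0 and bcl2fastq 2.20, and the file headers 3.1.0. No column of per-sample values was left unused (0).

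Kept barcodes had at least 500 genes, which 345 room-air and 1026 hyperoxic ones lacked, and at most 20% mitochondrial UMIs, which 80 and 486 exceeded. Likely doublets were then ranked by simulated doublets (2 per cell) among their neighbours, and 129 of 3809 and 1238 of 11711 cells were removed at 0.8% per 1000 cells. Cells scaled to 10000 UMIs were clustered without the members, from 2000 variable genes, 30 principal components, 20 neighbours and Leiden resolution 1 (Python 3.11.15, numpy 2.4.6, scipy 1.17.1, pandas 2.3.3, scikit-learn 1.9.0, igraph 0.11.9, leidenalg 0.10.2, figures with matplotlib 3.10.9). Mitochondrial and sex-linked genes were also left out of the variable genes, but the cell cycle lists were not. Clusters were named from at least 3 markers, and types of at least 50 cells were compared.

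Levels are UMIs summed over cells as CPM, and a gene was counted from 30 UMIs. Past 2-fold describes size and is no test, since each group had 1 library. Exact intervals (95%) cover counting error only, and a count of 0 was read as up to 3. Cell cycle ranges used cells of at least 2000 UMIs. Code was tested on simulated data. Normalization alternatives used TMM factors (edgeR 4.0.16, limma 3.58.1, R 4.3.3) and median-of-ratios factors. Other alternatives changed cell filters (1000 genes and 10%), doublet removal, clustering, weights and member limits. Coordinates and 3′ ends came from GENCODE M21 and promoters from RefSeq. With 1 library per group, litter, preparation and oxygen cannot be told apart.

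Named members were the 12 with most UMIs, the leading member of each family and, from 100 UMIs, the 5 highest and 5 lowest ratios between libraries and between cycling ranges. Named list genes were the 4 of widest ratio per list, and 5 genes of most like pattern were named for Hist1h2bc and Hist1h3b. The members and lists were chosen with earlier results of these data known.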

Additional observations from a re-analysis of the deposited data

How the results depend on the processing

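No paired analysis was possible because each group was 1 library. For the same reason no replicate could be left out. Of 554 alternative values of 79 results, 398 stayed within their counting interval or, for counts of members, near the main count, 144 moved by more and 12 changed sign. For 17 named members the numbers were 132, 34 and 4 of 170, and for 18 cell types 186, 29 and 7 of 222. The sum over all kept cells (log2 -0.39) was -0.34 with TMM and -0.34 with median-of-ratios factors, -0.24 as a mean over cells, -0.58 without Hist1h2bc, -0.19 over all deposited barcodes, -0.18 with no doublet removal and -0.36 with double the doublets removed. It was -0.038 without the 4 clusters of highest histone level, which were chosen after seeing the data. Members at least 2-fold lower numbered 13 and fell to 7 over all barcodes, 7 with no removal and 5 without those clusters.

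In ECs (-0.87) the value was -0.79 with median-of-ratios factors, -0.58 as a mean over cells, -1.12 without Hist1h2bc, -0.57 with no removal, -0.023 with double removal and -0.0055 without the 4 clusters. In epithelial cells (-0.72) it was -0.62 without mitochondrial, ribosomal protein and haemoglobin genes, -0.48 as a mean over cells, -0.29 with no removal and -1.02 with double removal. In lymphocytes (-0.45) it was -0.34 as a mean over cells, -0.38 with the stricter cell filter, -0.052 with no removal, -0.63 with double removal and 0.18 without the 4 clusters. In myeloid cells (-0.64) it was -0.53 with TMM and -0.54 with median-of-ratios factors, -0.24 as a mean over cells, -0.94 without Hist1h2bc, -0.79 with the stricter filter, -0.53 with no removal, -0.20 with double removal, -0.75 at resolution 2 and -0.18 without the clusters. In stromal cells (0.24) it was 0.0038 without Hist1h2bc, 0.35 with no removal and 0.35 with double removal.

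The ratio of cycling over non-cycling cells in room air (4.04) was 4.10 with median-of-ratios factors, 4.54 without Hist1h2bc, 3.86 with double removal and 4.48 for cells of at least 2%. In hyperoxia (3.39) it was 3.48 with TMM and 3.52 with median-of-ratios factors, 3.52 without mitochondrial, ribosomal protein and haemoglobin genes, 3.27 as a mean over cells, 3.99 without Hist1h2bc, 3.48 over all barcodes, 3.48 with no removal, 1.70 with double removal, 3.98 for cells of at least 2% and 3.22 after thinning to 2000 UMIs.

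Signs changed in B cells (-0.49), at 0.37 with no removal, 0.60 with double removal and 0.57 without the 4 clusters. T cells (-0.63) were at 0.12 with no removal and 0.19 without the clusters. Classical monocytes (0.76) were at -0.063 with double removal and alveolar macrophages (-1.47) at 0.43 without the clusters. Hist1h1e (-0.12) was at 0.077 over all barcodes, 0.080 with no removal, 0.18 without the clusters and 0.015 as a mean over cells. The median-of-ratios factor of hyperoxia over room air, relative to total UMIs, was -0.06 on the log2 scale over all kept cells. It was -0.11 in myeloid cells and -0.29 in alveolar macrophages, and such a factor below 0 raises the ratios of all genes. The causes of these changes were not tested. Depth limits the small ranges most, since 116 room-air and 182 hyperoxic cells were cycling. Too few cells were left to give AT1 cells with the stricter filter or double removal, dendritic cells with double removal or resolution 0.5, nonclassical monocytes and pericytes at resolution 0.5, innate lymphoid cells at resolution 2 and an unnamed stromal cluster under 5 settings.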
